A study of Mus musculus with 6 samples.

Results

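Sox9, Sox5, Sox6, Trps1, Nfatc2, Fgfr3, Ihh, Pth1r, Erg and Foxo3 are genes known to control chondrocyte identity and the pace of cartilage growth. These 10 genes were taken by name from the 34709 genes of the deposited table, and each name was carried by 1 gene. RNA sequencing of articular cartilage compared knockout (KO) mice with wildtype mice, with 3 libraries labelled for each group and no other treatment. Per the study's methods, the mice were 18-month-old males, littermates served for this ageing comparison, and the KO line was bought from a supplier, with no Cre driver restricting the knockout to cartilage named. The labels did not say whether tissue of several animals was pooled or whether replicates were separate animals, so p-values measured only the spread between these samples.

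Cartilage is built by chondrocytes, which depend on SOX9, a transcription factor that switches on the collagen and aggrecan genes. SOX5 and SOX6 bind beside SOX9 and strengthen its action. The growth of cartilage is paced by signals between chondrocytes: IHH is a hedgehog ligand made by maturing cells, PTH1R receives the PTHrP signal that delays maturation, and FGFR3 restrains proliferation. TRPS1 is a GATA-type repressor acting in the same growth zone, NFATC2 is a calcium-regulated factor, ERG is an ETS factor of the articular surface, and FOXO3 drives stress resistance and autophagy genes. Several of these genes also work outside cartilage. SOX6 and FOXO3 act in red cell precursors, ERG in blood stem cells and endothelium, NFATC2 in T cells and PTH1R in osteoblasts.

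The libraries held 52268311 to 63331135 counts. KO replicates 2 and 3 differed far less than any other pair: at 10000 to 50000 counts per gene their squared difference was 7.27 times the sampling noise, against 160.1 to 1363 in the other 14 pairs. They were averaged and counted as 1 sample, which left 2 KO and 3 wildtype samples. The labelled tissue was checked by its markers. Col2a1 and Acan, the main cartilage collagen and proteoglycan genes, were at 12.4 to 21.3 FPKM and 13.2 to 22.8 FPKM (fragments scaled to exon length and library size). The red cell gene Hbb-bs was at 9546 to 45390 FPKM and the neutrophil gene S100a9 at 11640 to 27820 FPKM. Other chondrocyte markers were more abundant, with Cytl1 at 471 to 2759 FPKM, Prg4 at 402 to 1034 FPKM, Chad at 70.3 to 230 FPKM and Comp at 41.0 to 109 FPKM, while Matn1 and Matn3, both cartilage matrilins, were listed at 0 in some libraries. Osteoblast genes were present as well. Their 7 markers summed to 646 to 728 FPKM in KO and 512 to 1430 FPKM in wildtype, with Bglap at 199 to 731 FPKM and Runx2 at 4.38 to 7.24 FPKM over the libraries. In such bulk tissue, fewer cells of a type and less RNA per cell cannot be told apart.

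The sequences before the start sites of Sox6, Erg and Foxo3 are shown because these were the 3 genes whose KO and wildtype FPKM values did not overlap, 1 higher and 2 lower in KO. Of all tested genes, 11.3% were higher and 13.7% lower in KO without overlap. The sequences are RefSeq promoters of GRCm38.p6, written 5′ to 3′ on the strand of the gene, with GC boxes (GGGCGG, searched on both strands) in capitals. Those of Sox6 (chr7:116031048-116031297, minus strand) and Erg (chr16:95586594-95586843, minus strand) span 250 bases, and that of Foxo3 (chr10:42276756-42276945, minus strand) the 190 bases that lie outside the annotated exons.
Sox6: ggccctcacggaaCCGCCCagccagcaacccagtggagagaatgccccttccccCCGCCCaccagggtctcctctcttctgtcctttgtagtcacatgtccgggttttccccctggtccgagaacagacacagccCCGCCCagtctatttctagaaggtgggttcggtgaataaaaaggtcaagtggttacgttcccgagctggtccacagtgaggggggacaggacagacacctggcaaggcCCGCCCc
Erg: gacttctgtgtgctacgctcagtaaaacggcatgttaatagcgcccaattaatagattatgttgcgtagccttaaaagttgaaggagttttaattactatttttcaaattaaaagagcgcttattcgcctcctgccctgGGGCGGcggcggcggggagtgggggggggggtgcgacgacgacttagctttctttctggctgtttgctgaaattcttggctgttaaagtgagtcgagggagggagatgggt
Foxo3: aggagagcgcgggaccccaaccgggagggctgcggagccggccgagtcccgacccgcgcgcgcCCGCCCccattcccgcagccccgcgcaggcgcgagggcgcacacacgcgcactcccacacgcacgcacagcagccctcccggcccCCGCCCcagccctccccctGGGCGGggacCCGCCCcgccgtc

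The Sox6 stretch held 4 GC boxes, the Erg stretch 1 and the Foxo3 stretch 4. Over the 250 bases upstream, 32.9% of the 27025 RefSeq promoters held at least 1 GC box, and the GC content was 48.8% in Erg, 60.8% in Sox6 and 76.4% in Foxo3. Of the 10 genes, 8 had a promoter in this reference. None of the 8 held GATAA, a core read by GATA-type factors (23.0% of all promoters held it), or CCGGAA, an ETS core (12.2%). ACAAT, a SOX core, was found once in Sox5 and once in Ihh (28.3% of all promoters). The Sox5 promoter in this reference belongs to a start 834813 bases from the 5′ end of the gene in the deposited table. These matches describe letters in the window and not binding.

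FPKM is scaled to length, and levels were set side by side with 1 limit. The length behind the values followed all annotated exon bases of a gene (14376 in Sox5, 14832 in Sox6, 3048 in Ihh, 2925 in Pth1r). It was not that of a transcript known to be expressed. Genes with many annotated exon bases may therefore rank lower than their transcripts would. Foxo3 had the highest mean over the libraries (16.6 FPKM), followed by Pth1r (12.0), Erg (9.04), Sox6 (4.20), Fgfr3 (3.06), Trps1 (2.80), Sox9 (1.79), Ihh (1.75), Nfatc2 (0.710) and Sox5 (0.399 FPKM). In the wildtype libraries, the ranges of Foxo3 and Pth1r overlapped, as did those of Fgfr3 and Trps1, of Trps1 and Sox9, and of Sox9 and Ihh. The other neighbours in this order did not overlap.

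To find out whether these genes differed between KO and wildtype cartilage, all genes whose FPKM averaged 0.5 or more were tested by the quasi-likelihood method of edgeR, with p-values adjusted after Benjamini and Hochberg. Sox5 was under that limit and the other 9 were among the 15373 genes tested. None of the 9 passed an adjusted p of 0.05, and neither did any other gene (0% of tested genes). At an unadjusted p under 0.05, 2 of the 9 were found, Erg higher and Sox6 lower, where the same limit took 13.7% of all tested genes, 7.63% as higher in KO and 6.07% as lower. Those shares are also the background for each count of listed or marker genes at that limit below. When the 6 libraries were used as labelled, Erg and Sox6 passed the adjusted threshold, with 3.71% of all tested genes. By DESeq2 on the 5 samples the same pair passed, with 5.62% of all tested genes.

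**Figure D1:**
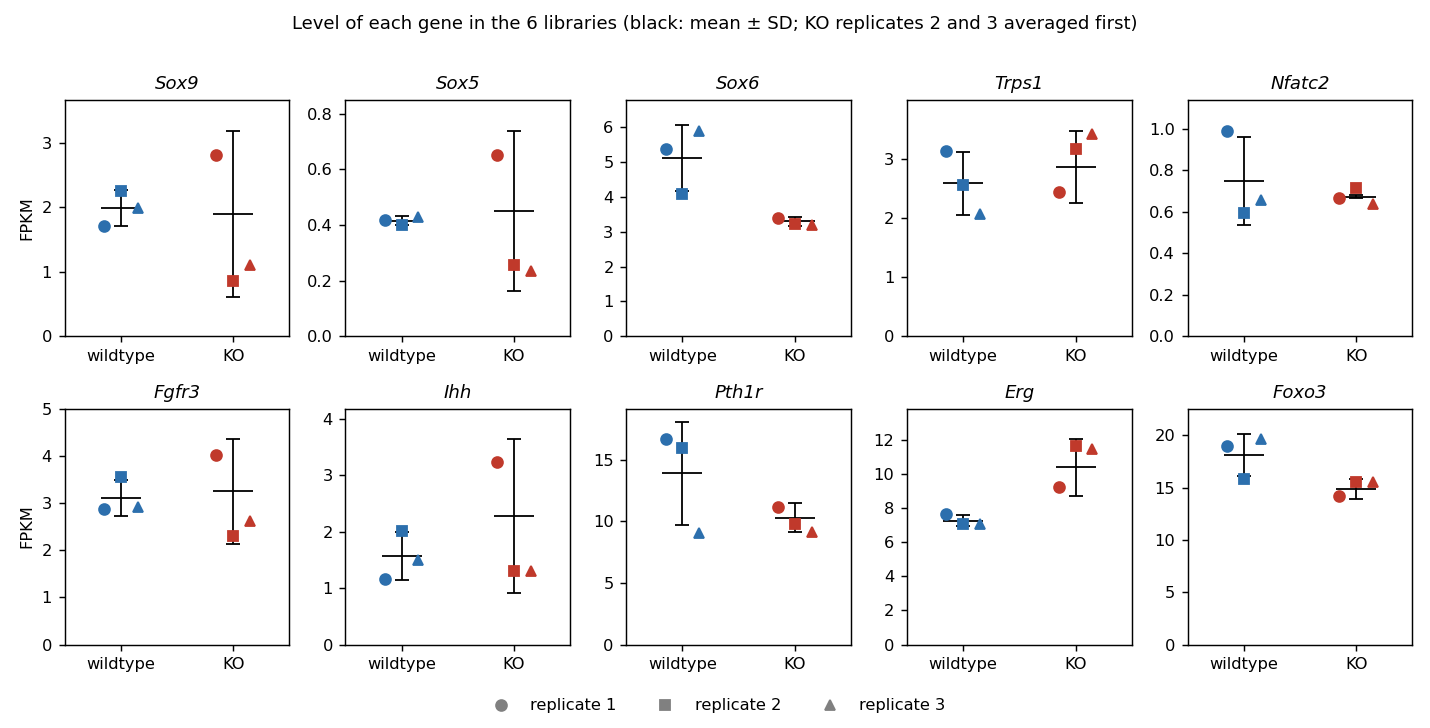
FPKM of the 10 genes (vertical axes from 0, 1 panel per gene) in the wildtype (blue) and KO (red) libraries, with the symbol marking the replicate and black bars the mean ± SD (n = 3 wildtype and n = 2 KO samples, KO replicates 2 and 3 averaged first). Erg lies higher and Sox6 and Foxo3 lie lower in all KO libraries, while Sox9, Sox5, Fgfr3 and Ihh are highest in KO replicate 1.

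Erg (ENSMUSG00000040732, chr16:95359169-95586593, minus strand, GRCm38), the ETS factor, was higher in each KO library than in any wildtype library. The KO libraries, in the order of their replicate numbers, held 9.23, 11.6 and 11.5 FPKM and the wildtype libraries 7.68, 7.09 and 7.07 FPKM. The groups did not overlap, and the wildtype libraries lay close together. The means were 10.4 ± 1.66 FPKM (SD, n = 2) and 7.28 ± 0.347 FPKM (SD, n = 3). The log2 difference was 0.53 (SE 0.136), with an unadjusted p of 0.00585 and an adjusted p of 0.186 by edgeR. With the 6 libraries as labelled it was 0.56 (edgeR adjusted p = 0.0401), and by DESeq2 0.54 (adjusted p = 0.0139).

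Neutrophil markers moved in the same direction as Erg. All 10 were higher in KO, 6 at an unadjusted p under 0.05, and their summed level was 50500 to 62200 FPKM in KO against 26900 to 43600 FPKM in wildtype libraries. Markers of endothelium, where Erg is also active, moved the opposite way: all 8 were lower in KO, 2 at an unadjusted p under 0.05, with sums of 33.4 to 36.7 FPKM against 36.6 to 53.9 FPKM. All 6 megakaryocyte markers were also lower, with sums of 849 to 915 FPKM against 978 to 1240 FPKM, none at that limit. The part of neutrophils in the Erg difference was not tested.

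Of the other ETS genes on a fixed list, 9 of 11 were tested, 5 higher and 4 lower, with none at an unadjusted p under 0.05 and a median log2 difference of 0.049. The median over all tested genes was -0.016. The values nearest to that limit were those of Etv6, a repressor of blood cell genes, with a log2 difference of 0.36 (SE 0.217), Elk4, a partner of serum response factor, with -0.31 (SE 0.228), and Fli1, the closest relative of Erg, with 0.17 (SE 0.131). Fli1 was at 20.6, 26.6 and 24.1 FPKM in the KO libraries and at 20.4, 21.8 and 19.6 FPKM in the wildtype libraries, with overlapping groups.

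Sox6 (ENSMUSG00000051910, chr7:115470872-116031047, minus strand) was lower in each KO library. Its level was 3.40, 3.23 and 3.19 FPKM in KO and 5.39, 4.08 and 5.90 FPKM in wildtype libraries. The KO libraries were nearly level and the wildtype libraries spread over a wider range above them, without overlap. The means were 3.31 ± 0.133 FPKM (SD, n = 2) and 5.12 ± 0.939 FPKM (SD, n = 3). The log2 difference was -0.61 (SE 0.168), with an unadjusted p of 0.00851 and an adjusted p of 0.202 by edgeR. With the 6 libraries as labelled it was -0.64 (edgeR adjusted p = 0.0488), and by DESeq2 -0.59 (adjusted p = 0.0445).

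The partners of Sox6 in cartilage, Sox9 and Sox5, did not share this pattern. Sox9 (ENSMUSG00000000567, chr11:112782224-112787760, plus strand), the factor that defines chondrocytes, was at 2.81, 0.865 and 1.11 FPKM in KO and at 1.70, 2.26 and 1.99 FPKM in wildtype libraries. KO replicate 1 was thus above all wildtype libraries and the other KO libraries were below all of them. The log2 difference was -0.03 (SE 0.440, edgeR adjusted p = 0.992). It was -1.05 without KO replicate 1 and 0.58 without KO replicates 2 and 3, and it also turned positive without wildtype replicate 2 (0.11) or KO replicate 2 (0.018).

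Sox5 (ENSMUSG00000041540, chr6:143828425-144781919, minus strand) was at 0.654, 0.257 and 0.235 FPKM in KO and 0.419, 0.399 and 0.430 FPKM in wildtype libraries, from 238 to 552 counts. The wildtype libraries were almost equal, with KO replicate 1 above and the other KO libraries below them. In a fit without the filter on low values its log2 difference was 0.18 (SE 0.358, edgeR adjusted p = 0.916). It was -0.74 without KO replicate 1 and 0.73 without KO replicates 2 and 3. The exons of Sox5 share 1330 bases with those of Sox5os1, an antisense gene, and since the use of strand in the counting was not stated, reads there could be split wrongly.

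Among 9 other SOX genes, 5 were tested, 1 higher and 4 lower, with a median log2 difference of -0.49. Sox4, a factor of progenitor cells including early B cells, was the gene at an unadjusted p under 0.05. It was at 3.72, 3.60 and 4.01 FPKM in KO and 6.88, 5.88 and 5.15 FPKM in wildtype libraries, with a log2 difference of -0.65 (SE 0.166, edgeR adjusted p = 0.186). It did not overlap, where 13.7% of all tested genes were lower in KO without overlap. Sox17, an endothelial factor, and Sox12 had log2 differences of -0.68 (SE 0.347) and -0.49 (SE 0.259). Of B cell markers, all 10 were lower in KO at an unadjusted p under 0.05, with sums of 88.6 to 140 FPKM against 283 to 316 FPKM, and their part in the Sox4 value was not tested.

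Foxo3 (ENSMUSG00000048756, chr10:42181841-42276752, minus strand), the stress-resistance factor, was at 14.2, 15.5 and 15.6 FPKM in KO and at 18.9, 15.8 and 19.6 FPKM in wildtype libraries. All KO libraries were lower, but wildtype replicate 2 lay close to KO replicates 2 and 3. The means were 14.9 ± 0.974 FPKM (SD, n = 2) and 18.1 ± 2.02 FPKM (SD, n = 3). The log2 difference of -0.27 (SE 0.128) did not pass the unadjusted limit, at 0.0741, and its edgeR adjusted p was 0.430.

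Of 19 other FOXO factors and FOXO target genes, 18 were tested, 6 higher and 12 lower, with a median log2 difference of -0.16. At an unadjusted p under 0.05, 2 were higher and 4 lower, where that limit took 7.63% of all tested genes as higher and 6.07% as lower. Cat, the peroxide-degrading catalase, was at 29.7, 30.0 and 32.4 FPKM in KO and 44.8, 36.9 and 50.2 FPKM in wildtype libraries, with a log2 difference of -0.51 (SE 0.145, edgeR adjusted p = 0.209). Sesn1, a sestrin that restrains mTORC1, was at 11.1, 9.58 and 9.94 FPKM against 15.4, 12.9 and 15.2 FPKM, with a log2 difference of -0.45 (SE 0.143, edgeR adjusted p = 0.243). Cited2, a transcriptional co-regulator, went the other way, at 23.5, 24.9 and 22.6 FPKM against 18.7, 16.2 and 18.1 FPKM, with a log2 difference of 0.44 (SE 0.119, edgeR adjusted p = 0.197). The groups did not overlap for any of these 3 genes, which were named for the smallest unadjusted p of their list. Of all tested genes, 11.3% were higher and 13.7% lower in KO without overlap.

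Most markers of red cell precursors and of macrophages were, like Sox6 and Foxo3, lower in KO. Of 10 erythroid markers, 9 were in the table, all 9 were lower in KO and 5 of them at an unadjusted p under 0.05, with sums of 21100 to 52300 FPKM against 60500 to 93800 FPKM. Of 7 macrophage markers, 5 were lower, 2 of them at that limit, with sums of 248 to 299 FPKM against 285 to 369 FPKM. The mean log2 CPM (counts scaled to the library total after TMM scaling) of the erythroid markers was then subtracted. The range over the 6 libraries went from 0.911 to 0.763 for Sox6 and widened from 0.385 to 1.16 for Foxo3. With the macrophage markers it was 0.377 for Sox6 and 0.207 for Foxo3, and with the endothelial markers 0.429 and 0.46. The part of either cell type in these differences was not tested.

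Ihh (ENSMUSG00000006538, chr1:74945315-74951672, minus strand), the hedgehog ligand, was at 3.24, 1.30 and 1.31 FPKM in KO and at 1.17, 2.01 and 1.51 FPKM in wildtype libraries. KO replicate 1 was the highest library, and the other KO libraries lay within the wildtype range. The means were 2.27 ± 1.37 FPKM (SD, n = 2) and 1.56 ± 0.424 FPKM (SD, n = 3). By edgeR the log2 difference was 0.57 (SE 0.445, adjusted p = 0.670), which became -0.31 without KO replicate 1 and 1.12 without KO replicates 2 and 3.

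Pth1r (ENSMUSG00000032492, chr9:110722085-110747145, minus strand), the receptor of the loop that IHH feeds, was at 11.2, 9.78 and 9.14 FPKM in KO and at 16.7, 16.0 and 9.09 FPKM in wildtype libraries. Wildtype replicates 1 and 2 were high, whereas wildtype replicate 3 was as low as the KO libraries. The log2 difference was -0.41 (SE 0.277, edgeR adjusted p = 0.607), and it ranged from -0.63 to -0.24 with libraries left out. Its exons share 95 bases with Myl3, a muscle gene on the opposite strand. The library order of Pth1r was close to that of osteoblast markers: all 7 were lower in KO, none at an unadjusted p under 0.05, with sums of 646 to 728 FPKM in KO and 512 to 1430 FPKM in wildtype. After their mean log2 CPM was subtracted, the range of Pth1r over the libraries was 0.494 in place of 0.893.

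Of 20 other genes of the hedgehog and PTHrP axis, 15 were tested, 8 higher and 7 lower, with a median log2 difference of 0.001. Sufu, an inhibitor of the pathway, had a log2 difference of -0.22 (SE 0.159) and Boc, a co-receptor, 0.35 (SE 0.323). The count of genes higher in KO turned on a single sample: it was 1 without KO replicate 1 and 14 without KO replicates 2 and 3.

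Fgfr3 (ENSMUSG00000054252, chr5:33721674-33737068, plus strand), the receptor that restrains growth, was at 4.04, 2.31 and 2.63 FPKM in KO and at 2.88, 3.57 and 2.93 FPKM in wildtype libraries. As with Sox9, KO replicate 1 was above and KO replicates 2 and 3 were below all wildtype libraries. By edgeR the log2 difference was 0.09 (SE 0.261, adjusted p = 0.944), -0.38 without KO replicate 1 and 0.45 without KO replicates 2 and 3. Its exons share 998 bases with a provisional transcript model, G630022F23Rik, on the opposite strand.

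Of 20 other genes of the FGF axis, 15 were tested, 2 higher and 13 lower, with a median log2 difference of -0.30. At an unadjusted p under 0.05, 3 were lower, as were 6.07% of all tested genes. The count of higher genes was 4 without wildtype replicate 1, 1 without wildtype replicate 2 and 6 without KO replicates 2 and 3. Spry1, a feedback inhibitor of receptor tyrosine kinases, was at 3.85, 3.80 and 3.38 FPKM in KO and at 9.04, 5.33 and 6.50 FPKM in wildtype libraries, with a log2 difference of -0.87 (SE 0.233, edgeR adjusted p = 0.194). Spred1, a related inhibitor, was at 5.29, 5.15 and 5.56 FPKM against 9.23, 7.47 and 6.53 FPKM, with a log2 difference of -0.52 (SE 0.165, edgeR adjusted p = 0.246). Both were lower in all KO libraries than in any wildtype library, as were 13.7% of all tested genes. Fgf2, a growth factor held in cartilage matrix, was at 0.259, 1.64 and 1.72 FPKM in KO and at 2.69, 2.84 and 2.96 FPKM in wildtype libraries, with a log2 difference of -1.56 (SE 0.629, edgeR adjusted p = 0.339), and KO replicate 1 stood far below the others.

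Trps1 (ENSMUSG00000038679, chr15:50654752-50890463, minus strand), the GATA-type repressor, was at 2.44, 3.17 and 3.42 FPKM in KO and at 3.14, 2.56 and 2.07 FPKM in wildtype libraries. The groups overlapped over most of their range. Trps1 had a log2 difference of 0.16 (SE 0.198, edgeR adjusted p = 0.817), and -0.0026 without KO replicates 2 and 3. It shares 25 exon bases with Mir1907.

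Nfatc2 (ENSMUSG00000027544, chr2:168476410-168601632, minus strand), the calcium-regulated factor, was at 0.667, 0.715 and 0.638 FPKM in KO and at 0.988, 0.592 and 0.659 FPKM in wildtype libraries. Wildtype replicate 1 was high and the other 5 libraries were close together. Nfatc2 had a log2 difference of -0.12 (SE 0.256, edgeR adjusted p = 0.911), and 0.10 without wildtype replicate 1. All 12 other NFAT and calcineurin genes were tested, 2 higher and 10 lower, with a median log2 difference of -0.094. The count of higher genes was 6 without KO replicate 1, 6 without wildtype replicate 1 and 1 without KO replicates 2 and 3. Of 8 T and NK cell markers, 7 were lower in KO, 3 of them at an unadjusted p under 0.05, and 1, Nkg7, was higher at that limit. Their median log2 difference was -0.36 and their sums were 93.9 to 115 FPKM in KO and 72.0 to 85.7 FPKM in wildtype libraries, where Nkg7 took most of the sum, and their part in the NFAT values was not tested.

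In that list, 2 genes were lower at an unadjusted p under 0.05, as were 6.07% of all tested genes. Ppp3cc, a calcineurin catalytic subunit, was at 2.40, 2.09 and 2.64 FPKM in KO and at 4.84, 3.57 and 3.92 FPKM in wildtype libraries, with a log2 difference of -0.76 (SE 0.197, edgeR adjusted p = 0.186). Nfatc4 was at 0.875, 0.767 and 0.730 FPKM against 1.64, 1.01 and 1.35 FPKM, with a log2 difference of -0.68 (SE 0.264, edgeR adjusted p = 0.320). Both were lower in all KO libraries than in any wildtype library, as were 13.7% of all tested genes. Ppp3cc and Nfatc4 were named for the smallest unadjusted p of their list, so a lack of overlap is less telling for them. Ppp3ca, another catalytic subunit, had a log2 difference of 0.29 (SE 0.137).

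**Figure D2:**
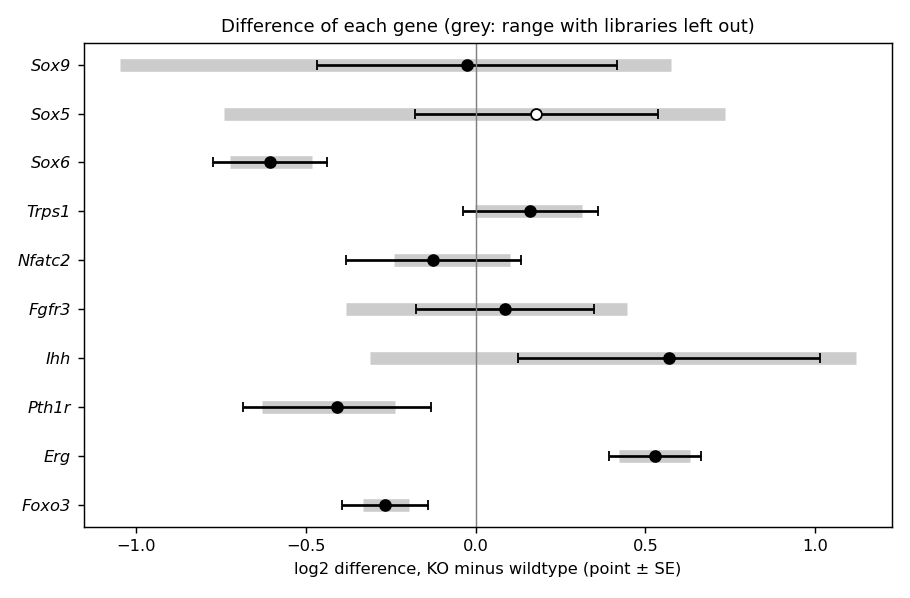
Log2 difference, KO minus wildtype, of each of the 10 genes (point) with its standard error (bar) by edgeR on 2 KO and 3 wildtype samples, and the range with libraries left out in grey; Sox5 (open point) is from the fit without a filter on low values. Erg stays above 0 and Sox6, Pth1r and Foxo3 stay below 0 over their grey ranges, whereas those of Sox9, Sox5, Fgfr3 and Ihh run from -1.05, -0.74, -0.38 and -0.31 to 0.58, 0.73, 0.45 and 1.12. Without overlap between the groups, the sides of Erg, Sox6 and Foxo3 could hardly change with libraries left out.

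Sox9, Sox5, Ihh and Fgfr3 shared 1 pattern, a high value in KO replicate 1. On the log2 CPM scale, KO replicate 1 exceeded the mean of KO replicates 2 and 3 by 1.62 for Sox9, 1.51 for Sox5, 1.41 for Ihh and 0.82 for Fgfr3, while the wildtype libraries spanned 0.50, 0.076, 0.87 and 0.40. For Erg, Trps1 and Foxo3 the same difference was -0.21, -0.32 and -0.023. It was positive but smaller for Pth1r (0.35), Sox6 (0.193) and Nfatc2 (0.094). A level in KO replicate 1 above, and in KO replicates 2 and 3 below, every wildtype library was found in 779 tested genes (5.07%), Sox9 and Fgfr3 among them. Ihh did not meet this stricter pattern and Sox5 was not among the tested genes. The share of all genes that were merely highest in KO replicate 1 was not counted.

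The mean level of chondrocyte markers split the KO libraries in the same way, though not every marker did. The mean log2 CPM of the 15 tested markers, relative to the wildtype mean, was 0.63, -0.43 and -0.38 in the KO libraries. It was -0.25, 0.33 and -0.08 in the wildtype libraries. Of 18 markers, 15 were tested, 10 higher and 5 lower in KO, none at an unadjusted p under 0.05, with sums of 1400 to 4340 FPKM in KO and 1180 to 2550 FPKM in wildtype, where Cytl1 made up 2759 FPKM of the sum in KO replicate 1. In 14 of the 18, KO replicate 1 was the highest KO library. Col11a1 (5.67, 10.4 and 10.2 FPKM) and Col11a2 (27.4, 31.3 and 31.5 FPKM) had instead their lowest KO value in KO replicate 1, and Col2a1 was at 16.0 FPKM there, below wildtype replicates 1 and 2 at 21.3 and 20.3 FPKM. When the mean chondrocyte marker level was subtracted, the range of Fgfr3 over the 6 libraries narrowed from 0.915 to 0.283, that of Ihh from 1.58 to 0.696, that of Sox5 from 1.58 to 0.69 and that of Sox9 from 1.80 to 0.868. For Sox9 the subtraction left KO replicates 2 and 3 at -0.79 and -0.48 and the other 4 libraries between -0.078 and 0.081. For Erg, Sox6 and Foxo3 it widened the range, from 0.689 to 1.38, from 0.911 to 1.43 and from 0.385 to 1.18.

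Markers of other tissues also separated KO replicate 1 from KO replicates 2 and 3, some by far more, though not every marker did. On the same scale, the level in KO replicates 1, 2 and 3 was 0.92, -5.38 and -5.49 for skeletal muscle markers. It was 0.22, -0.87 and -0.87 for fibroblast markers and -1.65, -4.04 and -4.06 for the 4 tested adipocyte markers. Of 4 tendon markers only 1, Fmod, was tested, and its level was 0.53, -1.43 and -1.20. KO replicate 1 was the highest KO library for 4 of the 5 fibroblast markers. It was the lowest for Pi16, at 19.5, 24.6 and 24.0 FPKM in KO. The 6 muscle markers summed to 140 FPKM in KO replicate 1, 4.65 and 3.77 FPKM in the other KO libraries and 33.0 to 262 FPKM in wildtype. The 5 adipocyte markers summed to 52.2, 20.3 and 20.0 FPKM in KO and 73.5 to 201 FPKM in wildtype. The part of these tissues in the values of Sox9, Sox5, Ihh and Fgfr3 was not tested.

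**Figure D3:**
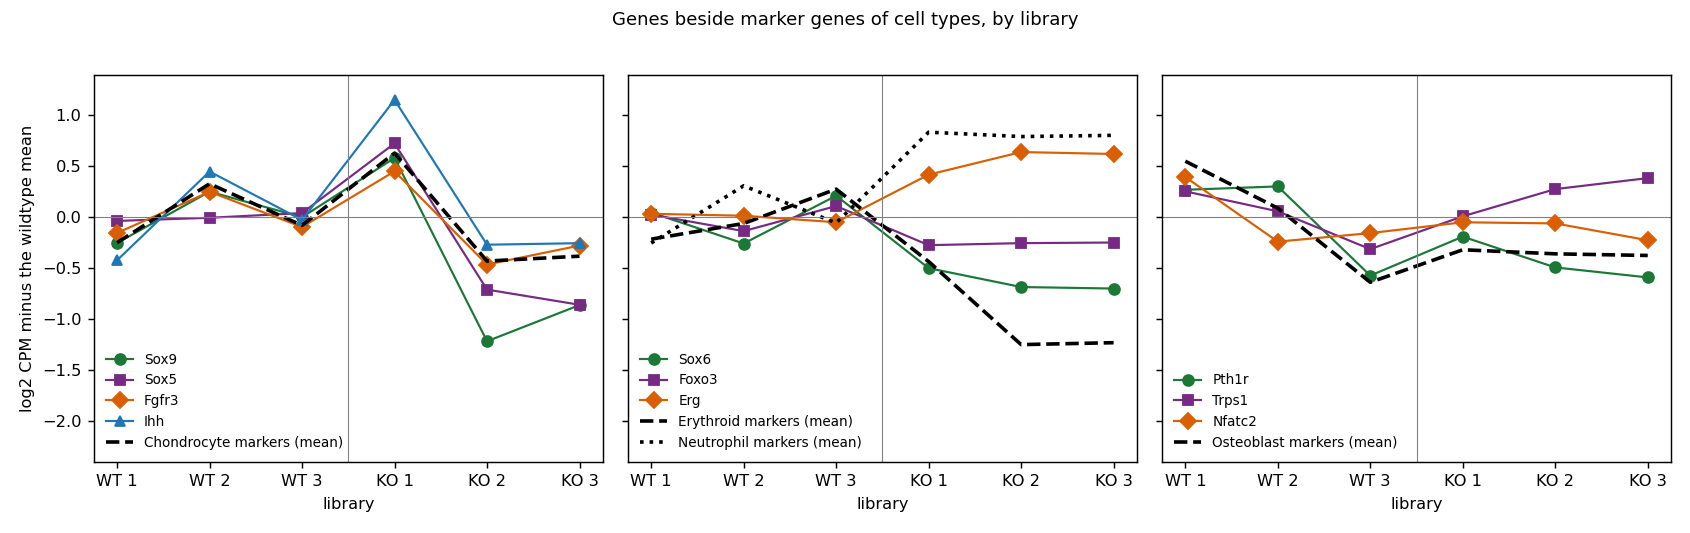
Log2 CPM minus the wildtype mean (vertical axis) in each library (horizontal axis) for the 10 genes in 3 panels, with the mean of cell type markers as dashed or dotted black lines. Fgfr3 runs along the chondrocyte markers (0.63 in KO replicate 1, -0.43 and -0.38 in the other KO libraries), Pth1r along the osteoblast markers, and Erg and Sox6 to opposite sides of 0 in all KO libraries.

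Of the 13 marker lists compared, the one that narrowed the range most was the chondrocyte list for Sox5, Fgfr3 and Ihh, the fibroblast list for Sox9 (0.806), the osteoblast list for Pth1r, the macrophage list for Sox6 and Foxo3, and the T and NK cell list for Nfatc2 (0.547, from 0.634). For Trps1 and Erg no list gave a range below that of the gene itself (0.911 against 0.697 with the megakaryocyte list and 0.705 against 0.689 with the neutrophil list). With 13 lists and 6 libraries a narrow range can arise without a shared source, so these values describe the libraries.

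The genes most like Sox9, Ihh and Sox5, which had the widest ranges, were sought among 7614 genes averaging 5 FPKM or more, by the root-mean-square difference of centred log2 CPM over the 5 samples. The nearest to Sox9 were Nt5e (0.073), Ccn2 (0.104), Nenf (0.107), Ddit4l (0.116) and Sdc4 (0.117), where the median gene was at 0.583. Ccn2, a matricellular growth factor, was at 129, 39.5 and 38.0 FPKM in KO and at 66.2, 94.1 and 90.3 FPKM in wildtype libraries. The nearest to Ihh were Fibin (0.071), Prg4 (0.085), Cilp (0.149), Brms1 (0.162) and Scin (0.166), against a median of 0.597. Prg4, the lubricin of the joint surface, was at 1034, 436 and 441 FPKM in KO and at 402, 581 and 494 FPKM in wildtype libraries. The nearest to Sox5 were Comp (0.059), Mgp (0.086), Ddit4l (0.096), Vit (0.128) and Bnip3 (0.134), against a median of 0.521. Comp, a cartilage matrix protein, was at 109, 41.0 and 41.0 FPKM in KO and at 70.8, 60.2 and 71.2 FPKM in wildtype libraries, so that it too was highest in KO replicate 1. Genes picked as the nearest of 7614 over 5 samples lie close by that choice. These distances describe the libraries, and shared control was not tested.

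Genes of chondrocyte hypertrophy, the end stage that IHH, PTH1R and FGFR3 govern, were examined last. Of 15, 14 were tested, 4 higher and 10 lower in KO, with a median log2 difference of -0.25. Hdac4, a deacetylase that holds back hypertrophy, was the gene at an unadjusted p under 0.05. It was at 1.70, 2.39 and 2.37 FPKM in KO and at 1.31, 1.48 and 1.35 FPKM in wildtype libraries, with a log2 difference of 0.57 (SE 0.170, edgeR adjusted p = 0.222). It did not overlap, where 11.3% of all tested genes were higher in KO without overlap. Mef2c, the factor that HDAC4 represses, had a log2 difference of -0.75 (SE 0.329, edgeR adjusted p = 0.380), and Ibsp, a mineral-binding bone protein, -0.52 (SE 0.240, edgeR adjusted p = 0.406). Mef2c was at 1.81 FPKM in KO replicate 1 but at 4.25 and 4.17 FPKM in KO replicates 2 and 3, close to wildtype replicates 2 and 3 at 4.47 and 4.28 FPKM.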

How the data were processed

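Strand-specific poly(A) libraries with molecular identifiers were, per the labels, sequenced from both ends with reads of 150 bases. The submitters' processing notes name cutadapt 1.9, HISAT2 2.0.4, UMI-tools, StringTie 1.3.4d, DESeq2 and edgeR. The authors deposited FPKM values, scaled within each library, and whole-number expected counts for 34709 genes on GRCm38; 0 sample columns were left unused. The targeted gene itself and 1 gene of a pathway list are not reported here.

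The 10 genes, the pathway and marker lists and the rule for naming genes (all 10 genes, up to 3 genes of each pathway list with the smallest unadjusted p, and the 5 nearest genes of the 3 with the widest range) were chosen with earlier results of these data known. Groups and replicate numbers came from the sample titles. KO replicates 2 and 3 were averaged. Counts were fitted with edgeR 4.0.16 (R 4.3.3), TMM scaling and the quasi-likelihood test, with Benjamini-Hochberg adjustment over all genes of at least 0.5 FPKM on average. The script was tested on simulated data. Log2 CPM used a prior count of 2. Alternatives were limma 3.58.1 on log2(FPKM + 1), log2(FPKM + 0.1) and quantile-normalized values, DESeq2 1.42.0, median-of-ratios scaling, other filters, counts divided by 4, a replicate block, the 6 libraries as labelled and libraries left out. Same-numbered libraries of the 2 groups did not deviate together (r of -0.145, -0.108 and -0.058 over genes), and the numbers were not taken as pairs. Because KO replicates 2 and 3 deviated almost alike, this check could not tell which wildtype library either would pair with.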

Additional observations from a re-analysis of the deposited data

How the results depend on the processing

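Erg, Sox6, Pth1r and Foxo3 kept their direction under every alternative in which they were tested (16 for Sox6, 17 for the others). For Erg, Sox6 and Foxo3 the KO and wildtype libraries did not overlap, so leaving libraries out could hardly reverse the sign. The remaining alternatives reused the same libraries, and a kept direction is therefore no further support for a difference. The count of genes past the adjusted threshold was 21 with no filter on low values, 863 by DESeq2, 570 with the 6 libraries as labelled, 0 to 352 with 1 library left out (352 without KO replicate 1) and 9 without KO replicates 2 and 3, and 2 of the 10 genes passed by DESeq2 and with the 6 libraries as labelled. With a replicate block on the 6 libraries, 0 genes passed, and the pairing check gave no sign that numbers mark pairs; the edgeR adjusted p was 0.127 for Erg and 0.111 for Sox6. Sign changes came for Sox9 (-1.05 to 0.11 over single libraries left out, 0.018 without KO replicate 2, 0.11 without wildtype replicate 2, 0.58 without KO replicates 2 and 3), Sox5 (-0.073 with 6 libraries and -0.74 without KO replicate 1, both fits chosen after seeing the data), Trps1 (-0.0026), Nfatc2 (-0.24 to 0.10 over single libraries left out, 0.022 by quantile normalization), Fgfr3 (-0.38 to 0.22 over single libraries left out, -0.053 with 6 libraries, -0.098 with the replicate block) and Ihh (-0.31 to 0.82 over single libraries left out, negative without KO replicate 1). Genes higher in KO numbered 1 to 6 in the NFAT list over the leave-outs, 4 with median-of-ratios scaling and 6 with the 6 libraries; 1 to 14 in the hedgehog list; 1 to 6 in the FGF list; and 3 in the ETS list without KO replicates 2 and 3. Where either KO sample was left out, the remaining 1 was assumed to vary like the wildtype samples. The cause of these changes was not tested.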
